A study of Homo sapiens with 2 samples.

Results

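The genes described here are 10 AP-1 subunits and immediate early genes, taken by symbol from the gene tables of a SETD2 knockout and a wild-type renal carcinoma line. They are FOS, FOSB, FOSL1, FOSL2, JUN, JUNB, EGR1, IER3, KLF4 and KLF6. All 10 symbols were found among the 23375 rows used, and all 10 passed the filter of at least 10 reads over both libraries that left 16894 genes. The knockout line was 786-O in which SETD2 had been knocked out with an engineered zinc finger nuclease, and it was set against 786-O with wild-type SETD2. 786-O is a widely used cell line from a clear cell kidney carcinoma, and the loss of VHL that it carries is shared by both lines. Both were kept in RPMI1640 with 10% FBS and given medium only. Whether the knockout line is 1 clone, and how long before harvest the medium was changed, is not given in the sources used here. SETD2 places the trimethyl mark on H3K36 along transcribed genes.

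AP-1 is a dimer of basic leucine zipper proteins. JUN proteins can pair with themselves or with FOS proteins, whereas FOS proteins need a JUN partner to bind DNA. Immediate early genes are transcribed within minutes of serum, growth factor or stress signals, without new protein synthesis, through factors such as SRF and CREB that MAP kinases activate. Their transcripts are short-lived as a rule. FOSL1 and FOSL2 differ from FOS in that they tend to stay expressed in many carcinoma lines.

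The data were RNA sequencing counts and RPKM values, with 1 library per line. RPKM is the number of reads per kilobase of exons, scaled to sequencing depth, and is the scale used here to compare levels between genes. The knockout library held 50670012 fragments in genes and the wild-type library 62304084. Each ratio sets the knockout over the wild-type library in fragments scaled in edgeR (trimmed mean of M values, TMM), with an exact 95% interval that covers counting error only. Since each line had 1 library, no difference has a replicate check, no p-value was computed, and each result compares these libraries, not the conditions. In bulk RNA, fewer cells with a transcript and less of it per cell cannot be told apart. SETD2 itself had 1404 fragments in the knockout and 4908 in the wild-type library, a ratio of 0.334 with an interval of 0.314 to 0.354. The renal marker PAX8 was at 30.9 RPKM in the knockout and 43.7 RPKM in the wild-type library, and KRT18, a simple epithelial keratin, at 82.3 and 101 RPKM. Of the kidney carcinoma markers only CA9, a carbonic anhydrase induced by hypoxia, was near absent, with 0 knockout and 1 wild-type fragments. The leukocyte marker PTPRC had 1 and 2 fragments, the endothelial marker PECAM1 0 and 1, and the fibroblast marker DCN 0 and 2 in the knockout and wild-type libraries. CD3E, a marker of T cells, had 0 fragments in both. Other markers of these lists were counted and differed in both directions. COL1A1, a fibroblast collagen, had 805 knockout and 418 wild-type fragments (ratio 2.25). COL1A2, another collagen of that list, went the other way, with 0 and 14 fragments (interval of the ratio 0 to 0.352). LUM had 79 and 251 (ratio 0.367) and the pericyte marker RGS5 had 400 and 363 (ratio 1.29). Of the myeloid markers, CD14 had 38 knockout and 7 wild-type fragments (ratio 6.33) and CSF1R had 68 and 198 (ratio 0.401). The endothelial marker TEK had 16 and 4 (ratio 4.67, interval 1.51 to 19.2). Summed over the 6 leukocyte, 5 endothelial and 6 fibroblast markers, the levels were 0.734, 0.0794 and 3.34 RPKM in the knockout library and 0.739, 0.0674 and 2.93 RPKM in the wild-type library, sums in which opposite differences offset each other. Their part in the results below was not tested.

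Genes were called higher or lower where the interval in full was beyond 1.5-fold. By that rule 10.4% of all genes tested were higher in the knockout library and 9.17% were lower. Of the 10 genes, 2 were higher (FOSB and KLF4), 3 were lower (FOSL1, IER3 and KLF6) and 5 passed in neither direction (FOS, FOSL2, JUN, JUNB and EGR1). Their median log2 ratio was -0.11, against 0.02 over all genes tested. The genes thus lay on both sides of the median, with 4 above and 6 below it. With the limit set at 2-fold, 1 gene was higher (FOSB) and 2 were lower (IER3 and KLF6), against 5.75% and 3.37% of all genes tested. Since the 10 were chosen with earlier results of these data in view, nothing is read from their share of calls.

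**Figure D1:**
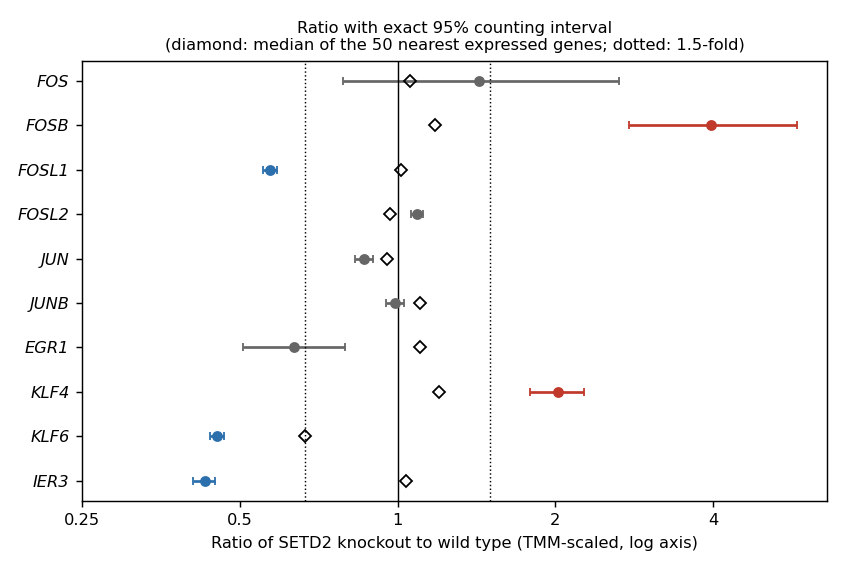
Ratio of SETD2 knockout to wild type for each of the 10 genes on a log axis, with exact 95% counting intervals, 1 library per line. Red marks genes called higher, blue genes called lower and grey the rest. FOSB lies farthest to the right at 3.97 and IER3 farthest to the left at 0.428, and the diamond of KLF6 shows that its chromosomal neighbours were lower as well.

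Promoter sequence is shown for the genes in which it held a binding motif of the factors named above, so that the levels below can be read beside it. The RefSeq promoter table (GRCh38.p14) matched 8 of the 10 genes by symbol, all but FOSL1 and IER3, and the 250 bases upstream of the annotated start were searched on both strands. The motifs were the AP-1 site TGANTCA, the cyclic AMP response element TGACGTCA, the CArG box bound by SRF, and the EGR1 site GCGNGGGCG. The JUN-type AP-1 variant TGACATCA was added after the other searches had been seen. No matches overlapped, and the palindromic CArG box was counted once for both strands. Sequences run 5′ to 3′ along the gene's own strand and end at the base before the start, with matches in capitals. They lie at chr5:138465229-138465478 on the plus strand for EGR1, at chr1:58784048-58784297 on the minus strand for JUN, at chr9:107489770-107490019 on the minus strand for KLF4 and at chr10:3785210-3785459 on the minus strand for KLF6.
EGR1: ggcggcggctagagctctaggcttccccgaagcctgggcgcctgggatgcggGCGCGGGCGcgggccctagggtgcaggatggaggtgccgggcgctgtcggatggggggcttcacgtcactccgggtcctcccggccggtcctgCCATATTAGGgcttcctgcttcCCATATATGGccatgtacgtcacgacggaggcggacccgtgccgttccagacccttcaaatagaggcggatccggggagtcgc
JUN: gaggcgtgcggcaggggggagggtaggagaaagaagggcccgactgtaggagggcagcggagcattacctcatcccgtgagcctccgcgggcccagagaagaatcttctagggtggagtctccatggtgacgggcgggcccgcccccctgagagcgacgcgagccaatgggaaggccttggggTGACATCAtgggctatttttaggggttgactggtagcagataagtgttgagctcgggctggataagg
KLF4: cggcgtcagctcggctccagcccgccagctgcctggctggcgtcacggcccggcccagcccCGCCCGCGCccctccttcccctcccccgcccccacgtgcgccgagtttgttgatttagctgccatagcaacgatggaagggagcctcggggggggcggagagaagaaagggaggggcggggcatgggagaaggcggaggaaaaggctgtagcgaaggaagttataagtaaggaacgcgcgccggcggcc
KLF6: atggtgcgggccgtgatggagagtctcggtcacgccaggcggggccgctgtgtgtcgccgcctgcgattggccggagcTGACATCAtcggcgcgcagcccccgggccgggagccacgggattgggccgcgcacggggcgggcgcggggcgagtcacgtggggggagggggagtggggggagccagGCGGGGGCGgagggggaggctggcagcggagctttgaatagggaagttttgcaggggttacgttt

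EGR1 held 2 CArG boxes, at 105 to 96 and at 83 to 74 bases upstream of the start, and was the 1 gene of the 8 with this motif, which 1.16% of the 35116 promoters in the table held. EGR1 also held its own protein's motif, as did KLF4 and KLF6, and 8.41% of all promoters held that motif. The variant TGACATCA stood 67 to 60 bases upstream of JUN and 172 to 165 bases upstream of KLF6, and 2.37% of all promoters held it. As a JUN-type variant added after the other searches were seen, it gives no independent result for JUN. TGANTCA (6.57% of all promoters) and TGACGTCA (1.65%) were in none of the 8 windows. FOS, FOSB, FOSL2 and JUNB matched no motif searched in this window. Sites farther upstream, and sequences that depart from these motifs, were not counted. The lack of a match therefore does not show that a gene, FOS included, is without sites for SRF or CREB. All 8 windows were rich in G and C, at 62.0% in JUN up to 72.4% in KLF6, against a median of 58.0% over all promoters. Binding at these motifs was not measured, and their part in the levels of KLF4, KLF6 and the other genes was not tested.

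In the FOS family, FOSL1 and FOSL2 carried nearly all of the level in both libraries. FOSL1 (hg19 chromosome 11, 65659692 to 65667997), which encodes FRA1, a FOS-type subunit without the transactivation domain of FOS, had 6603 fragments in the knockout and 13498 in the wild-type library. Its level was 56.9 RPKM in the knockout and 94.4 RPKM in the wild-type library, and in the wild-type library 2.86% of tested genes were higher, against 5.18% in the knockout library. It was 1.75-fold lower in the knockout library (interval 1.70-fold to 1.81-fold). FOSL1 was the most abundant of the 10 genes per length in both libraries all the same.

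FOSL2 (chromosome 2, 28615779 to 28637516), which encodes the related subunit FRA2, had 9967 knockout and 10640 wild-type fragments. Its level was 35.9 RPKM in the knockout and 31.1 RPKM in the wild-type library. The ratio of 1.09 had an interval of 1.06 to 1.12, above 1 but short of 1.5-fold. FOSL1 and FOSL2 therefore lay closer together in the knockout library, where FOSL1 had 1.59 times the RPKM of FOSL2, against 3.04 times in the wild-type library.

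FOSB (chromosome 19, 45971253 to 45978437), the FOS-type subunit known for long-lived splice forms in neurons, had 136 knockout and 40 wild-type fragments. Its level was 0.518 RPKM in the knockout and 0.124 RPKM in the wild-type library. The ratio of 3.97, with an interval of 2.77 to 5.79, was the highest of the 10, and 6.26% of tested genes had a higher log2 ratio. The gene was nonetheless scarce in both lines, since 72.6% of tested genes had a higher RPKM in the knockout library and 81.2% in the wild-type library.

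FOS (chromosome 14, 75745481 to 75748937), the founding member and the textbook serum-induced gene, had 27 knockout and 22 wild-type fragments. These correspond to 0.180 RPKM in the knockout and 0.119 RPKM in the wild-type library. The ratio of 1.43 had an interval of 0.785 to 2.64, so a difference in either direction was not detectable at this depth. FOS and FOSB stood at nearly the same level in the wild-type library, where FOSB had 1.04 times the RPKM of FOS and their counting intervals overlapped, and FOSB had 2.88 times the RPKM of FOS in the knockout library.

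Summed over the 4 FOS-family genes, the level was 93.5 RPKM in the knockout and 126 RPKM in the wild-type library, a ratio of 0.704 after TMM scaling and 0.744 in RPKM. FOSL1 made up 60.9% of that sum in the knockout and 75.1% in the wild-type library, and FOSL2 38.4% and 24.7%. FOSB and FOS together stayed marginal, at 0.554% and 0.192% in the knockout library and 0.0983% and 0.0946% in the wild-type library.

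**Figure D2:**
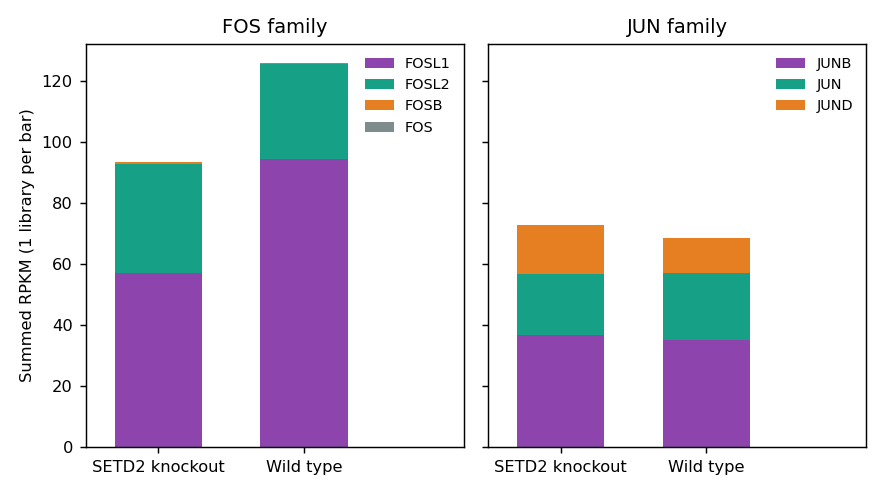
Summed RPKM of the FOS family (left) and the JUN family (right) in the SETD2 knockout and the wild-type library, 1 library per bar, with each gene's part in colour. The FOS-family bar is at 93.5 in the knockout and 126 in the wild-type library and differs mainly in FOSL1, and the JUN-family bars are at 72.8 and 68.4.

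The JUN family, the obligate side of the AP-1 dimer, differed little. JUNB (chromosome 19, 12902310 to 12904125), a JUN subunit with weaker transactivation than JUN in many settings, had 4639 knockout and 5464 wild-type fragments, or 36.7 RPKM in the knockout and 35.1 RPKM in the wild-type library. Its ratio of 0.990 had an interval of 0.952 to 1.03, and over 5 scalings it ran from 0.983 to 1.05, so that its direction depended on the scaling. JUN (chromosome 1, 59246463 to 59249785), the main transactivating partner, had 4608 knockout and 6232 wild-type fragments, or 19.9 RPKM in the knockout and 21.9 RPKM in the wild-type library. Its ratio of 0.862 had an interval of 0.830 to 0.896, which lies below 1 but inside 1.5-fold. JUND, a JUN subunit that is expressed constitutively in many cells and is not among the 10 genes, completed the family at 16.1 RPKM in the knockout and 11.4 RPKM in the wild-type library, with a ratio of 1.34 and an interval of 1.26 to 1.42.

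JUNB made up 50.4% of the JUN-family sum in the knockout and 51.3% in the wild-type library. JUN made up 27.4% and 32.0%, and JUND 22.2% and 16.7%. The summed level was 72.8 RPKM in the knockout and 68.4 RPKM in the wild-type library, a ratio of 1.06 in RPKM and 1.01 after TMM scaling. In both libraries the order of the AP-1 genes per length was led by FOSL1, followed by JUNB and FOSL2, then JUN, then JUND, with FOSB and FOS last. In the knockout library JUNB and FOSL2, at 36.7 and 35.9 RPKM, had overlapping counting intervals (35.7 to 37.8 and 35.2 to 36.6).

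**Figure D3:**
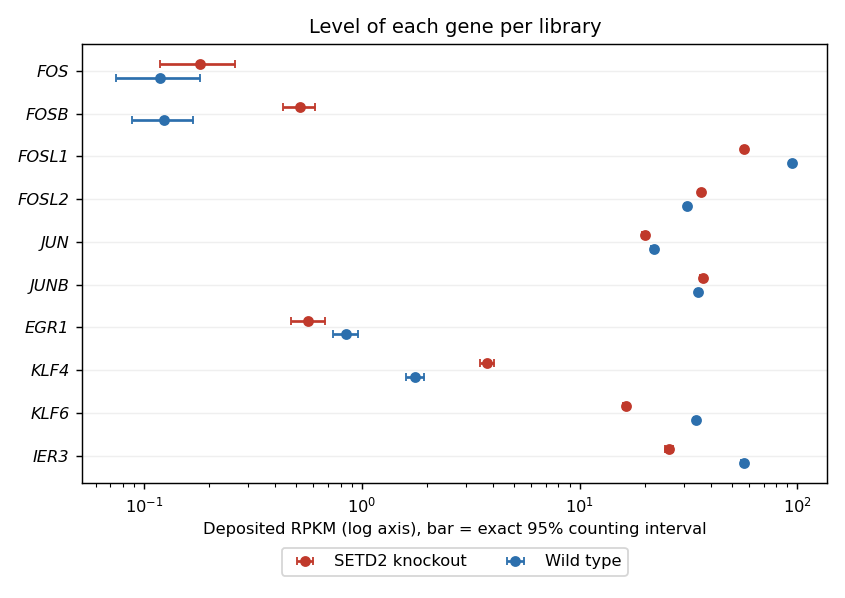
Deposited RPKM of the 10 genes on a log axis in the SETD2 knockout (red) and the wild-type (blue) library, with exact 95% counting intervals, 1 library per line. FOS, FOSB and EGR1 lie below 1 RPKM and KLF4 between 1.76 and 3.75 RPKM, while the other 6 genes lie above 16 RPKM in both libraries.

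Of the zinc finger transcription factors, KLF4 and KLF6 differed in opposite directions. KLF4 (chromosome 9, 110247133 to 110252047), a factor of epithelial differentiation and one of the pluripotency reprogramming factors, had 766 knockout and 443 wild-type fragments, or 3.75 RPKM in the knockout and 1.76 RPKM in the wild-type library. It was 2.02-fold higher in the knockout library, with an interval of 1.79 to 2.27. Its 50 nearest expressed genes had a median log2 ratio of 0.26, and relative to them KLF4 had a ratio of 1.68 with an interval that ended at 1.90 and started just under 1.5.

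KLF6 (chromosome 10, 3818188 to 3827473), a factor described as a growth suppressor in several epithelia, had 5272 knockout and 13611 wild-type fragments, or 16.3 RPKM in the knockout and 34.1 RPKM in the wild-type library. It was 2.21-fold lower in the knockout library (interval 2.14-fold to 2.29-fold). The genes around it were lower too, with a median log2 ratio of -0.59 over the 50 nearest. Relative to that median KLF6 had a ratio of 0.681 with an interval of 0.659 to 0.703, which is not wholly beyond 1.5-fold. KLF6 had 4.33 times the RPKM of KLF4 in the knockout library, against 19.3 times in the wild-type library.

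EGR1 (chromosome 5, 137801181 to 137805004), the serum- and growth-factor-induced factor whose CArG boxes are shown above, had 124 knockout and 228 wild-type fragments. Its level was 0.568 RPKM in the knockout and 0.848 RPKM in the wild-type library. The ratio of 0.634 had an interval of 0.506 to 0.793, below 1 but not wholly beyond 1.5-fold. EGR1 was thus the scarcest of the 10 genes after FOS and FOSB in the wild-type library, and in the knockout library its interval of 0.473 to 0.678 RPKM overlapped that of FOSB, 0.434 to 0.612 RPKM.

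IER3 (chromosome 6, 30710976 to 30712327), a small stress-induced protein that modulates apoptosis and ERK signalling and is also a known NF-kB target, had 2214 knockout and 6036 wild-type fragments. Its level was 25.7 RPKM in the knockout and 56.8 RPKM in the wild-type library, below FOSL1, JUNB and FOSL2 in the knockout library and below FOSL1 alone in the wild-type library. It was 2.34-fold lower in the knockout library (interval 2.23-fold to 2.46-fold), and 5.31% of tested genes had a lower log2 ratio. Its 50 nearest expressed genes had a median log2 ratio of 0.05, so the log2 ratio of IER3 was -1.27 relative to them and -1.22 on its own.

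Relative to their own neighbours, FOSB and FOSL1 also kept their distance, with log2 ratios of 1.74 and -0.82. The neighbours of the 5 genes called in neither direction had medians from -0.07 around JUN to 0.14 around EGR1 and JUNB. None of the 10 rows overlapped another row of the tables, although whether counting used strand is not stated in the labels.

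**Figure D4:**
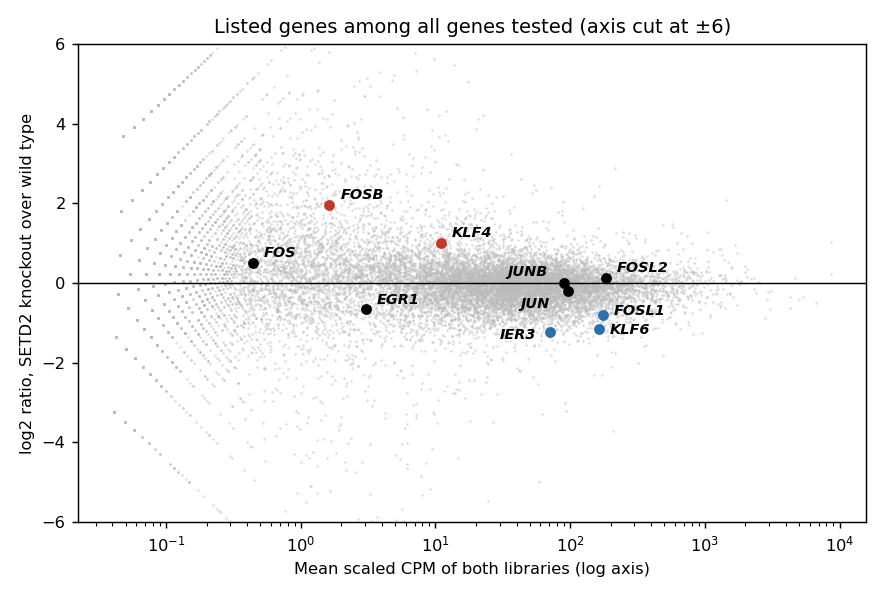
Log2 ratio of SETD2 knockout over wild type against the mean scaled level (CPM, log axis) for all 16894 genes tested in grey, with the 10 genes labelled (red higher, blue lower, black neither). FOSB and FOS lie in the sparsely counted range where ratios spread widely, while FOSL1, IER3 and KLF6 lie below 0 in the well-counted range.

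The 10 genes share a compact structure. Their span from start to stop had a median of 4370 bases, from 1352 in IER3 to 21738 in FOSL2, against a median of 24714 over all genes tested. Of the 10, 9 spanned at most 10000 bases, as did 27.8% of genes tested. JUN and JUNB had a span equal to their exonic length, as genes without introns do, and 6.87% of tested genes had this structure. The exonic length was not short, with a median of 3034 bases against 2887 over all genes tested. Among the 4695 tested genes of at most 10000 bases, 9.03% were higher and 7.73% lower, and among the 12199 longer genes 10.9% and 9.73%.

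The other genes of the pathway were taken from 8 lists of factors, upstream signalling, feedback, decay and targets, and each count is given against the 10.4% higher and 9.17% lower over all genes. Among 12 measured AP-1 relatives and partner bZIP factors, 1 was higher and 3 were lower, with a median log2 ratio of 0.19. MAFF, a small MAF protein without a transactivation domain that is itself inducible, had 561 knockout and 1715 wild-type fragments and was 2.62-fold lower. MAFK, another small MAF protein, was 1.69-fold lower (interval 1.54-fold to 1.86-fold).

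Of 28 other immediate early genes measured, 6 were higher and 1 was lower, and the median of 0.04 lay near that of all genes. BTG2, an antiproliferative gene also induced by p53, was at 8.96 RPKM in the knockout and 2.83 RPKM in the wild-type library, higher by 1.58 on the log2 scale, with an interval of the ratio of 2.74 to 3.28. IER5L, a relative of the immediate early gene IER5, was 2.53-fold higher (interval 2.36 to 2.71). HBEGF, a ligand of the EGF receptor, was 1.82-fold lower (interval 1.71-fold to 1.93-fold). Of these 28 genes, 21.4% were called higher and 3.57% lower, while 15 lay above and 13 below the median of all genes. The count of higher genes depended on the rule. Relative to the 50 nearest expressed genes, 4 were higher and 1 was lower, against 10.3% and 5.81% of all genes. At 2-fold, 2 were higher and 0 lower, against 5.75% and 3.37% of all genes.

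Upstream, serum response and CREB factors and their kinases numbered 17, of which 1 was higher and 3 were lower, and their median was -0.13. CRTC1, a CREB coactivator, was at a ratio of 1.92 (interval 1.72 to 2.16). The ERK-activated kinases RPS6KA2 and RPS6KA3 were at ratios of 0.501 (interval 0.420 to 0.595) and 0.601 (interval 0.583 to 0.619). Relative to their neighbours, their log2 ratios were -1.09 and -0.57. With neighbours as the reference, 1 gene of this list was higher and 1 in place of 3 was lower, against 10.3% and 5.81% of all genes. SRF itself, named after its value was seen because it binds the CArG box, was at a ratio of 1.02 with an interval of 0.978 to 1.06.

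In the MAP kinase cascade, 1 of 23 genes was higher and 2 were lower, with a median of 0.01. MAPK13, the delta isoform of p38, had 480 knockout and 76 wild-type fragments, a ratio of 7.37 with an interval of 5.77 to 9.51. NRAS, a RAS GTPase at the top of the cascade, was 1.99-fold lower (interval 1.94-fold to 2.05-fold). It lay among genes that were lower too, with a neighbour median of -0.77 on the log2 scale, and relative to these its log2 ratio was -0.22.

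Feedback inhibitors of the cascade numbered 14 measured genes, of which 1 was higher and 4 were lower, and their median was -0.27. DUSP9, an ERK phosphatase, was 2.65-fold lower (interval 2.07-fold to 3.44-fold). DUSP16, a JNK phosphatase, was 2.07-fold lower (interval 1.91-fold to 2.23-fold), with neighbours at a median of -0.73. DUSP10, which acts on JNK and p38, was at a ratio of 1.78 (interval 1.67 to 1.90).

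Textbook AP-1 targets had 10 lower and 2 higher genes of 20, and their median was -0.74. The cytokine genes IL8 and IL6, which NF-kB also drives, were 9.19-fold and 4.61-fold lower, with 952 and 789 fragments in the knockout library against 10206 and 4241 in the wild-type library. SPP1, which encodes osteopontin, was at 347 RPKM in the knockout and 123 RPKM in the wild-type library, 2.66-fold higher with an interval of 2.62 to 2.71. HMOX1, a heme oxygenase that NRF2 also induces, was 2.23-fold higher. Of the collagenase genes, MMP1 had 119 knockout and 676 wild-type fragments (ratio 0.205) and MMP13 had 349 and 1429 (ratio 0.285). These 2 were named after their values were seen and lie in 1 gene cluster. AP-1 binding was not measured, and the part of AP-1 in these levels was not tested.

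The remaining KLF genes numbered 12 measured genes, of which 0 were higher and 1 was lower, and their median was 0.13. KLF8, a KLF repressor, had 0 knockout and 34 wild-type fragments, and its exact interval starts at 7.48-fold lower. With the knockout library set at a floor of 3 fragments, KLF8 would be 9.72-fold lower. The other 11 were called in neither direction. Of 8 proteins that bind AU-rich elements, the decay and stability signals found in many immediate early transcripts, 0 were higher and 0 lower. The most abundant, ZFP36L1 and HNRNPD, were at ratios of 1.25 and 0.882.

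**Figure D5:**
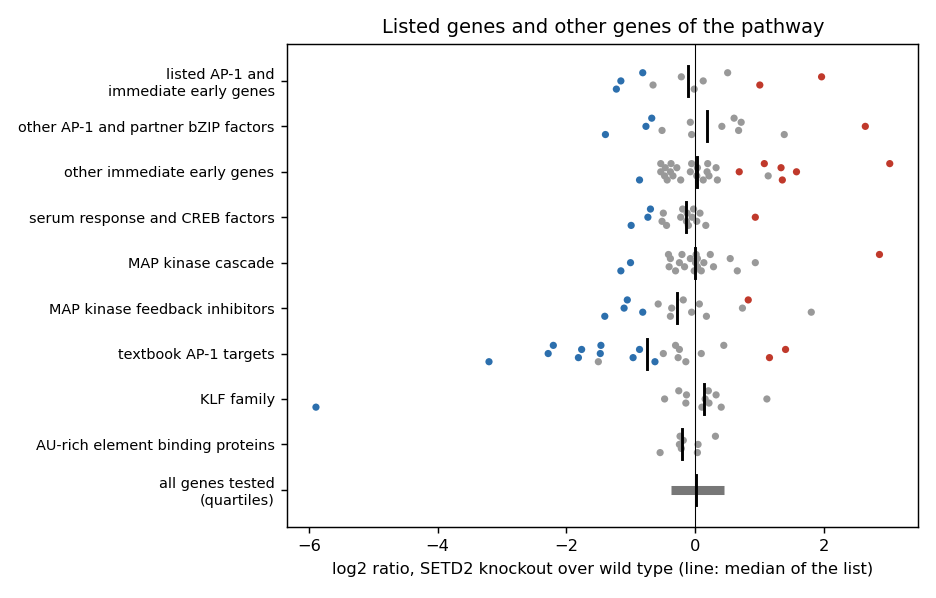
Log2 ratio of SETD2 knockout over wild type for each measured gene of the 10 listed genes and the 8 other lists, with red for genes called higher, blue for genes called lower and grey for the rest. Black lines are list medians and the grey bar spans the quartiles of all genes tested, -0.38 to 0.45. The textbook AP-1 targets have the lowest median, -0.74. The point near -6 is KLF8, whose value for 0 knockout fragments depends on the 0.5 added fragments.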

How the data were processed

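The 2 RNA libraries, SETD2 knockout and wild-type 786-O, were grouped by their titles. The authors deposited per gene a count of reads and an RPKM value, per the file headers. hg19, TopHat2 2.0.6, Bowtie and HTSeq are named in the submitters' processing notes, while settings, annotation and strandedness are not stated there. Every deposited count was even, so each fragment appears as 2 reads and counts were halved. The deposited RPKM was the count over the table's length column and 1 total per library, of which 72.8% (knockout) and 72.7% (wild type) lay in the rows used. Y rows of 23 genes listed on X and Y were dropped from 23398 rows. Genes reaching 10 reads in both libraries together were scaled by TMM (edgeR 4.0.16, R 4.3.3). Ratios have exact conditional (Clopper-Pearson) 95% intervals (SciPy 1.17.1), and log2 ratios use 0.5 added fragments. Reads are not independent molecules, and intervals and floors cover counting error only. Neighbours were the 50 nearest genes on the chromosome with at least 100 reads. The interval code was tested on simulated data.

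All 10 genes are named. From each other list up to 2 higher and 2 lower genes with the interval farthest from 1 are named, or else the 2 most abundant. Some genes that this rule takes are not reported here. SRF, MMP1, MMP13, JUND and the markers PAX8, KRT18, CA9, PTPRC, PECAM1, DCN, CD3E and RGS5 were added, as were the genes of the closing observations. The genes and lists were chosen with earlier results of these data known. Lists share some genes, such as HBEGF. Alternatives were other scalings (total count, upper quartile, DESeq2 1.42.0 size factors, RPKM), minimums of 1 and 50 reads, undivided counts, a 99% interval, no interval, 2-fold, 2 added fragments, protein-coding genes only and neighbours as reference.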

Additional observations from a re-analysis of the deposited data

How the results depend on the processing

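The 2 higher and 3 lower genes of the 10 were recounted under 13 alternatives. With a 2-fold rule 1 gene was higher (FOSB) and 2 were lower (IER3 and KLF6), since KLF4 and FOSL1 no longer passed. Relative to the 50 nearest expressed genes 1 was higher (FOSB) and 2 were lower (FOSL1 and IER3), since KLF4 and KLF6 no longer passed. Without an interval EGR1, at a ratio of 0.634, counted as lower. Of 130 single-gene outcomes, 4 lost and 1 gained a call, and 0 reversed. Of 208 list counts 29 moved by more than 1.5 times, most of them counts of 0 to 5 genes. Over all genes, 1756 were higher and 1550 lower, against 1739 and 981 relative to neighbours, 971 and 569 at 2-fold, and 3538 and 2830 without an interval. Total count scaling gave 1998 and 1275. FOS, FOSB and EGR1 are limited by depth, with 22 to 228 fragments per library. No paired analysis was possible because each line had 1 library.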

Other observations

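Several bZIP genes that can form dimers with AP-1 subunits had ratios above 1 without an interval wholly beyond 1.5-fold. They were chosen after their values were seen. ATF3, a stress-induced factor, had 760 knockout and 581 wild-type fragments, a ratio of 1.53 with an interval of 1.37 to 1.70. Its neighbours had a median log2 ratio of -0.45, and relative to them its log2 ratio was 1.06, so that 2 genes of its list in place of 1 were called higher with neighbours as the reference. JDP2, a repressor that pairs with JUN, was at a ratio of 1.65 with an interval of 1.39 to 1.94. BATF2 had 32 knockout and 14 wild-type fragments, a ratio of 2.67 with an interval of 1.38 to 5.41.

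Other inducible genes were also chosen after their values were seen. Of the NR4A orphan nuclear receptors, NR4A2 had 113 knockout and 51 wild-type fragments and was 2.58-fold higher, with an interval of 1.84 to 3.67. NR4A3 had 42 and 22 fragments, a ratio of 2.23 with an interval of 1.30 to 3.92, and NR4A1 had 88 and 90, a ratio of 1.14 with an interval of 0.840 to 1.55. Of the EGR genes, EGR2 had 36 knockout and 61 wild-type fragments, a ratio of 0.688 with an interval of 0.443 to 1.06, and EGR3 had 3 and 5, a ratio of 0.700 with an interval of 0.109 to 3.60. The interval of EGR2 overlapped that of EGR1, 0.506 to 0.793. That of EGR3 is too wide at its depth for a comparison with EGR1. The ERK phosphatase DUSP6, an ERK-induced gene, was at a ratio of 0.466 with an interval of 0.381 to 0.567, and its neighbours had a median log2 ratio of -0.44. The AP-1 partner MAF was at a ratio of 0.630 with an interval of 0.600 to 0.661, while its neighbours had a median log2 ratio of 0.20.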
